A study of Mus musculus with 15 samples.

Results

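The genes described here copy the genome in S phase or make the deoxynucleotides for it. They are 44 mouse genes named by function, from the licensing factors of replication origins to the enzymes that supply dTTP. Each was read through the probe set that the array annotation gave to that gene alone, a probe set being the group of short probes that reports 1 transcript; where a gene had several, the brightest over all 15 arrays was used. Of the 44 genes, 43 could be read this way, out of 18193 genes on the arrays, and Chaf1a had no probe set of its own. The rule that defines the members uses function and no measured value, but it was drawn up with earlier results of these data known.

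The RNA came from C57Bl/6 mice and was hybridised to 15 Affymetrix 3' expression arrays. Sorted wild-type bone marrow populations taken at steady state gave 8 arrays, 2 for each of 4 groups. Common myeloid progenitors (CMP) were sorted as CD117-high CD135+ CD16/32- cells, granulocyte-macrophage progenitors (GMP) as CD117-high CD16/32+ CD135- cells, common dendritic cell progenitors (CDP) as CD117-intermediate CD135+ cells, and the precursors of classical dendritic cells, or pre-cDC, as CD117-low CD135+ CD11c+ cells. A single array held a pre-cDC sample whose title names the spleen, although its cell type label is that of a bone marrow progenitor. Whole bone marrow grown for 7 days in 20 ng/ml M-CSF gave 1 array of adherent cells, and marrow grown for 7 days in 20 ng/ml GM-CSF gave 1 array of adherent and 1 of non-adherent CD11c+ cells. Bone marrow monocytes, enriched by removing other cells with antibodies, were measured once each at 0, 24 and 48 h of culture with 20 ng/ml GM-CSF. No age of the mice is given in the sources used here. The titles mark the paired arrays of each group WT1 and WT2, but nothing in the labels says that they came from separate animals. A p-value here rests on the spread between such paired arrays, pooled over the 4 groups and adjusted toward that of other genes. That spread may be technical.

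Replication begins when the origin recognition complex (Orc1, Orc6) with Cdc6 and Cdt1 loads the ring of Mcm2 to Mcm7 onto DNA, a step called licensing. Cdc45 and the GINS proteins then turn that ring into a moving helicase. DNA polymerase alpha with primase starts each strand, the RFC complex loads the sliding clamp PCNA, and polymerases delta and epsilon extend the strands behind it. RPA covers single-stranded DNA, Fen1 and Lig1 finish the lagging strand, and Rrm1, Rrm2, Tk1, Tyms and Dut keep up the supply of deoxynucleotides. Many of these genes are known targets of E2F transcription factors, which act at the entry into S phase, and the step from CDP to pre-cDC is known as a step of commitment in cells that still divide.

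The values were intensities on a linear scale, and 4 scales were present. The median over all probe sets was 15.95 to 17.44 on the 8 progenitor arrays, 24.09 to 25.66 on the 3 culture arrays, 77.73 to 80.53 on the 3 monocyte arrays and 74.17 on the Spl array, so tests and counts were kept within the first 3 blocks, and the Spl array is described apart, across scales. The paired arrays correlated at 0.9953 to 0.9968 across genes and held identical values for 0.289 to 0.364% of probe sets. The sorting markers followed the gates: Kit, which encodes CD117, lay at 905 to 1229 in CMP and GMP, 335 and 368 in CDP and 36.3 and 36.8 in pre-cDC, and Flt3, which encodes CD135, was 31.8 and 35.9 in GMP against 1193 to 1623 in the other 3 groups. All 43 members were above the array median on all 8 progenitor arrays, and 37 of 43 were on the Spl array. Monocyte markers were above the array median for 4 of 4 genes on the 0 h monocyte array and 3 of 4 at 24 and 48 h, and macrophage markers for 5 of 5 genes on each culture array.

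Among the progenitors the members were lowest in bone marrow pre-cDC, and the step from CDP is described first. In pre-cDC 40 of the 43 members fell, 0 rose and 3 did not pass the test, with a median log2 difference of -0.84. The test was limma on log2(intensity + 32), fitted to the 8 progenitor arrays over all 18193 genes, with a Benjamini-Hochberg adjusted p under 0.05 as the threshold. By the same rule 33.2% of all genes were called, 18.8% as lower and 14.4% as higher, and the median of all genes was -0.01. In a fit limited to the 11482 genes above the median of all probe sets in at least 1 group, a set to which every member belongs, 54.1% were called and 31.1% were lower. That fit called 41 members lower and 0 higher. At an unadjusted p under 0.05 in the limma fit of all genes, 41 members were lower and 0 were higher. With the mean of all probe sets of each gene 38 members fell, as 4 lost their call and 2 gained one. A smaller share of cells in S phase and less of each RNA per cell cannot be told apart in such bulk samples.

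**Figure D1:**
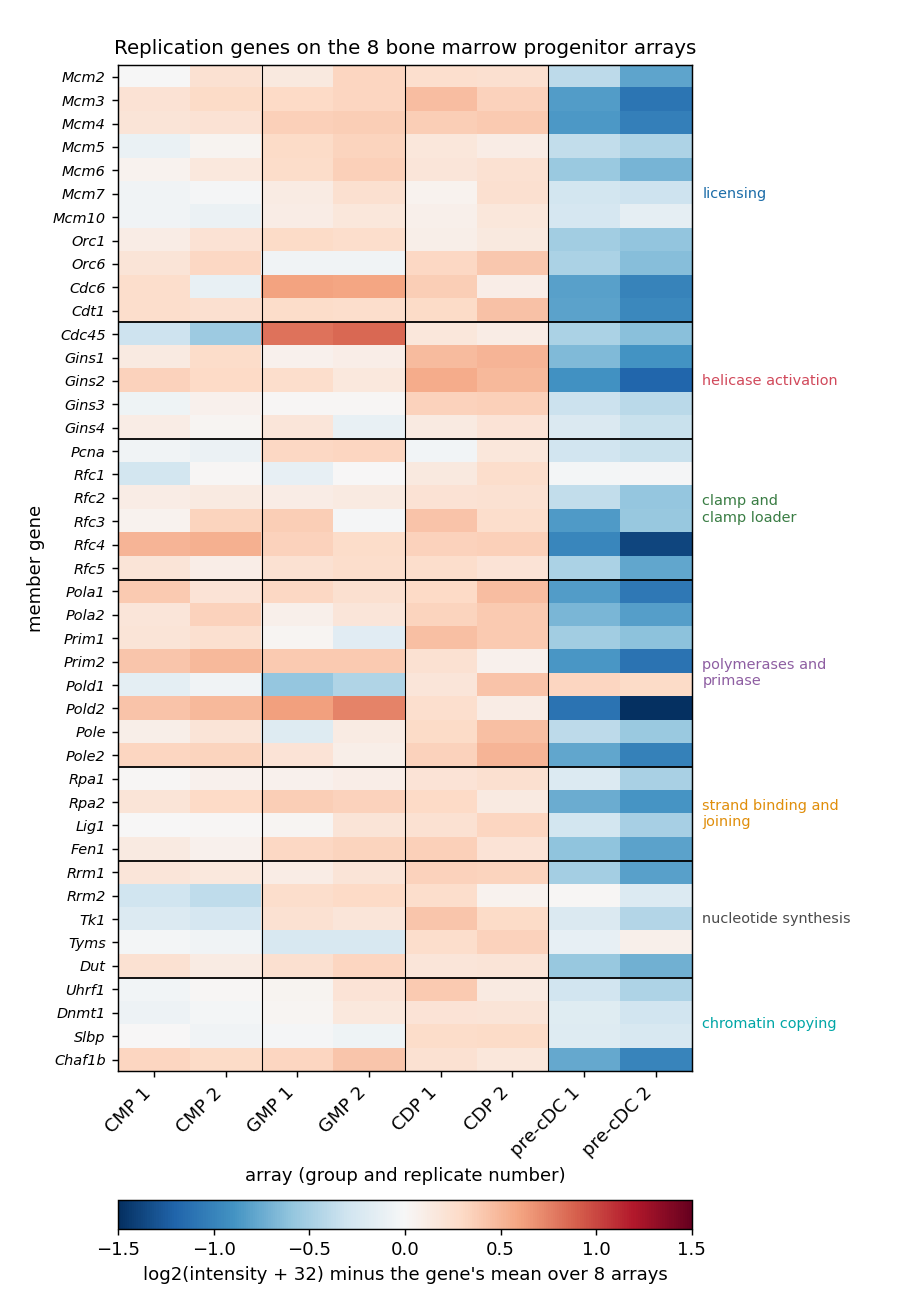
Heat map of the 43 members (rows, ordered by role) on the 8 bone marrow progenitor arrays (columns), each cell showing log2(intensity + 32) minus that gene's mean over the 8 arrays, blue for lower and red for higher. The pre-cDC columns are the darkest blue for most rows, with Pold1, Rfc1, Rrm2 and Tyms as the visible exceptions, and Cdc45 is highest in the GMP columns.

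The group of origin licensing genes fell in 11 of 11 cases, by 0.31 (Mcm10) to 1.37 (Mcm3) on the log2 scale. Mcm10, which is neither a loader nor a subunit of the Mcm2 to Mcm7 ring, was counted in this group. The fall of Mcm10 rests on its brightest probe set, as dimmer ones gave -0.016 and -0.023. Mcm3, a subunit of the helicase ring, read 1611 and 1692 in CMP, 1707 and 1729 in GMP, 1905 and 1758 in CDP, and 756 and 625 in pre-cDC. Its pre-cDC arrays lay far below all 6 others, which spanned a narrow range. The difference from CDP was -1.37 (standard error 0.10, limma adjusted p = 2e-07). Of the other ring members Mcm4 fell by 1.33, Mcm2 and Mcm6 by 0.84 and 0.83, Mcm5 by 0.55 and Mcm7 by 0.45. Their order depends on the probe set: dimmer ones gave -1.48 for Mcm2, -1.10 for Mcm6, -0.86 for Mcm5 and -1.49, -1.06 and -0.72 for Mcm7, and differences between members were not tested. Cdt1 and Cdc6, which load the ring, fell by 1.25 and 1.14, and Orc1 and Orc6 by 0.67 and 0.92. Among the 31 called members with several probe sets, 28 had the same sign in all of them; Mcm6, Cdc45 and Slbp were the exceptions, and that of Mcm6 was a probe set with a mean intensity of 5.75.

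Helicase activation genes fell in 5 of 5 cases. Gins2, which encodes a GINS subunit, gave the largest fall of any member. Its intensity was 295 and 284 in CMP, 276 and 255 in GMP, 345 and 328 in CDP, and 105 and 80.5 in pre-cDC. The groups did not overlap, and pre-cDC was lower than CDP by 2.97-fold (log2 difference -1.57, standard error 0.12, limma adjusted p = 3.3e-07). Gins1 fell by 1.27, Gins3 by 0.72 and Gins4 by 0.44. Cdc45 fell by 0.70, from 227 and 217 in CDP to 133 and 116 in pre-cDC, a level that overlaps its CMP arrays at 154 and 126. A second, dimmer Cdc45 probe set moved the other way (0.35), and the mean of both gave -0.18, which did not pass the test.

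In the clamp and clamp loader group 5 of 6 fell. Rfc4, a small subunit of the loader, read 596 and 610 in CMP, 531 and 504 in GMP, 531 and 534 in CDP, and 193 and 138 in pre-cDC. It was nearly level through the 3 earlier groups and fell by 1.53 in pre-cDC (standard error 0.12, limma adjusted p = 7.8e-07). Rfc3 fell by 1.05, Rfc5 by 0.86, Rfc2 by 0.70 and Pcna, the clamp itself, by 0.38. Rfc1, the large subunit, did not pass the test: its arrays were 682 and 740 in CDP and 597 and 602 in pre-cDC. The difference was -0.23, with a 95% interval from -0.48 to 0.01 (limma adjusted p = 0.14). Its dimmer probe sets were lower too, at -0.44 and -0.29.

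Polymerase and primase genes fell in 7 of 8 cases, with the lowest median of the 7 role groups (-1.13). Pold2, an accessory subunit of polymerase delta, read 633 and 660 in CMP, 722 and 798 in GMP, 556 and 502 in CDP, and 198 and 139 in pre-cDC. Pre-cDC stood apart from every other array, and the fall from CDP was 1.50 (standard error 0.13, limma adjusted p = 1.5e-06). Pold1, the catalytic subunit of the same enzyme, was the member that moved least: 677 and 811 in CDP against 752 and 731 in pre-cDC. The pre-cDC arrays lay between the CDP arrays, and the difference was 0.00 with a 95% interval from -0.23 to 0.24. A second probe set of Pold1 gave -0.015. Pola1, Pole2, Prim2, Pola2, Prim1 and Pole, which serve polymerases alpha and epsilon and primase, fell by 1.34, 1.32, 1.14, 1.12, 0.99 and 0.84.

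**Figure D2:**
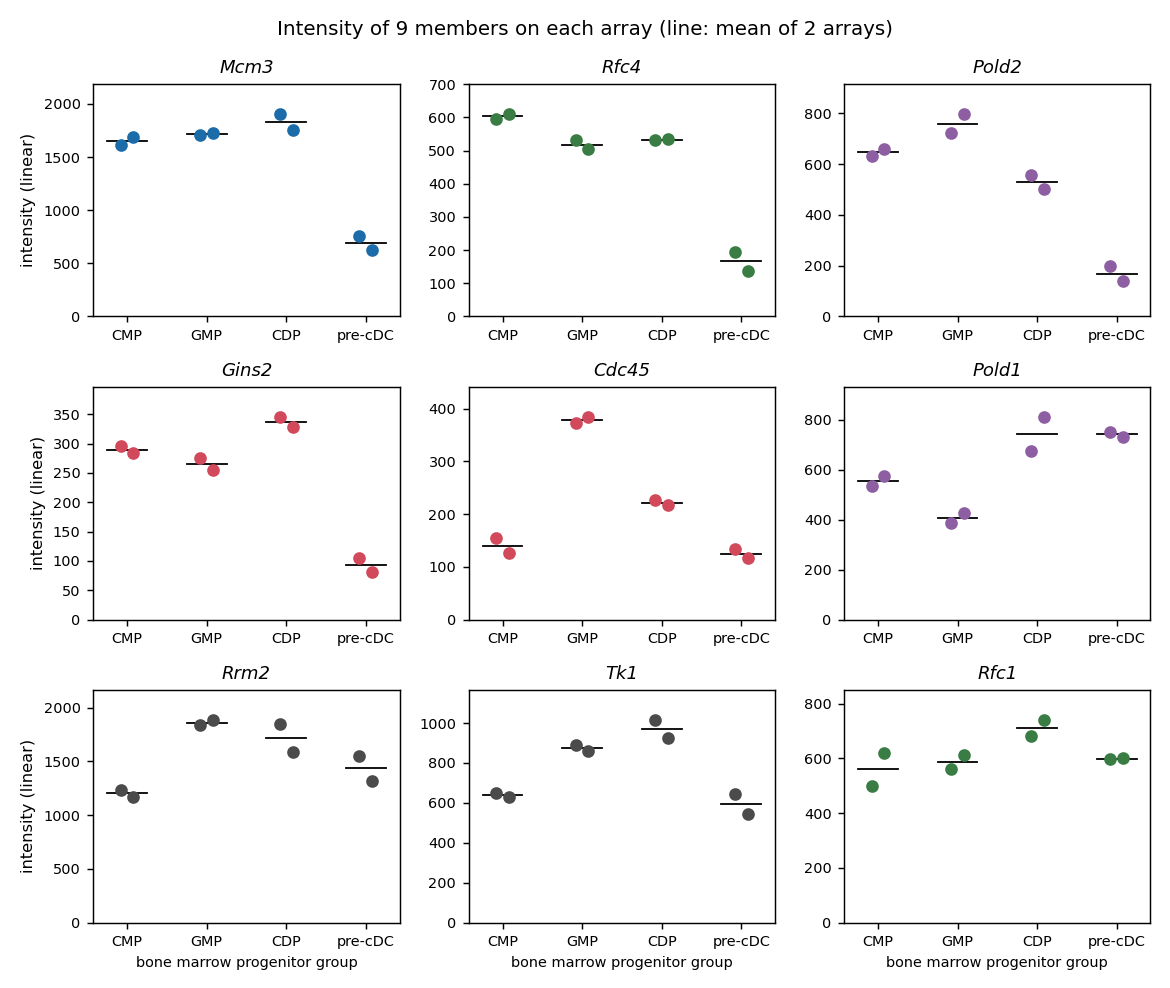
Linear intensity (vertical axes, from 0) of 9 members on each of the 8 bone marrow progenitor arrays, as points by group with a line at the mean of the 2 arrays. Mcm3, Rfc4, Pold2 and Gins2 drop in pre-cDC below every other array, Cdc45 is highest in GMP, and Pold1 stays at its CDP level.

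The strand binding and joining genes fell in 4 of 4 cases. Rpa2, a subunit of the single-strand binding protein RPA, went from 667 and 592 in CDP to 308 and 278 in pre-cDC, with 617 to 705 in CMP and GMP. That is a fall of 1.03 (standard error 0.10, limma adjusted p = 4.7e-06). Fen1, the flap nuclease, fell by 0.98, Lig1, the ligase, by 0.66 and Rpa1 by 0.57.

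Of the nucleotide synthesis genes 4 of 5 fell. Rrm1, the large subunit of ribonucleotide reductase, read 1842 and 1818 in CDP and 998 and 805 in pre-cDC, a 2.01-fold fall (standard error 0.10 on the log2 scale, limma adjusted p = 3.7e-06). Rrm2, the small subunit of the same enzyme, read 1846 and 1584 in CDP and 1553 and 1318 in pre-cDC, a difference of -0.25 that did not pass (95% interval -0.47 to -0.04, limma adjusted p = 0.070). Both dimmer probe sets of Rrm2 gave lower values, -0.76 and -0.50, and the mean over all 3 passed at -0.50. Dut, which breaks down dUTP, fell by 0.83, Tk1, thymidine kinase, by 0.68 and Tyms, thymidylate synthase, by 0.33. Tyms was dim throughout, at 56.5 and 61.2 in CDP and 35.3 and 45.5 in pre-cDC, and the mean over its 4 probe sets did not pass (-0.16).

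All 4 measured genes of chromatin copying fell. Chaf1b, a subunit of the histone chaperone CAF-1, went from 158 and 151 in CDP to 63.5 and 49.4 in pre-cDC, a fall of 1.08 (standard error 0.11, limma adjusted p = 6.1e-06). Uhrf1 and Dnmt1, which copy DNA methylation onto the new strand, fell by 0.63 and 0.43. Slbp, which binds the stem-loop of histone mRNAs, fell by 0.49, and its dimmer probe sets gave 0.043 and -0.152.

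For 37 of the 43 members both pre-cDC arrays were below all 6 other progenitor arrays, which was the case for 22.7% of all genes; for 0 members were both above, against 19.5% of all genes. The exceptions were Cdc45, Rfc1, Pold1, Rrm2, Tk1 and Tyms, of which 3 belong to nucleotide synthesis.

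Promoters were compared because these genes moved together. RefSeq promoter windows on GRCm38.p6, running from 250 bases before to 50 after the annotated start, were matched for 36 of the 43 members, with 44 windows in all because 6 genes have several starts. The E2F letters searched were TTTCCCGC, TTTCGCGC, TTTGCCGC and TTTGGCGC on both strands, with overlapping matches counted. They were present in 15 of 36 members (41.67%) and in 34.09% of the members' windows, against 3.81% of the 14452 measured genes with a window and 3.21% of their windows. The 4 windows below show how the letters lie in members that fell and in the one that did not; capitals mark the E2F letters, and each window is read in the direction of the gene. They are Mcm3 (chr1:20820263-20820562, minus strand), Mcm6 (chr1:128359656-128359955, minus strand), Pole2 (chr12:69228141-69228440, minus strand) and Pold1 (chr7:44548766-44549065, minus strand).
Mcm3: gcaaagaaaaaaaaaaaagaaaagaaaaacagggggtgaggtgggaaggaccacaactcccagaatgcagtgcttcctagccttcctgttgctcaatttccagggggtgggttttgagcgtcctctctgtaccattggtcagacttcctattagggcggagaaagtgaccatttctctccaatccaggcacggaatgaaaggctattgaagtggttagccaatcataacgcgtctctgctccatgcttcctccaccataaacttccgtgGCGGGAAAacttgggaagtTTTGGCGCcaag
Mcm6: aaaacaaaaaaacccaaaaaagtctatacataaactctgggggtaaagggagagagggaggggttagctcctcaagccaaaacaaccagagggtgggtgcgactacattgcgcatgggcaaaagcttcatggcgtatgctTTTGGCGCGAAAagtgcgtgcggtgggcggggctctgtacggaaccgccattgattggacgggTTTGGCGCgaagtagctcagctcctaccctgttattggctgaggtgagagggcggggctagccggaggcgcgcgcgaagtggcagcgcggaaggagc
Pole2: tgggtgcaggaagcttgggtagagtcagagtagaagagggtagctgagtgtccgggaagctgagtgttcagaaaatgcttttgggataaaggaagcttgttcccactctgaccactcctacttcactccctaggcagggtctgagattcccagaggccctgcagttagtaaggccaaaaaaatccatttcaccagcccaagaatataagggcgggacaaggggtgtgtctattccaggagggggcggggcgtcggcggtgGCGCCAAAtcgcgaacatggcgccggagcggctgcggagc
Pold1: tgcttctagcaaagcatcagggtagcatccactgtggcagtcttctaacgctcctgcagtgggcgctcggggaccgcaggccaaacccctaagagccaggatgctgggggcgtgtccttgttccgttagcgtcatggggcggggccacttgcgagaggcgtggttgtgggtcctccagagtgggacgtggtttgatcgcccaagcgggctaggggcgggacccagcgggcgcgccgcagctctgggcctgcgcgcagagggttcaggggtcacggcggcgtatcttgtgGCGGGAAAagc
Mcm3 held 2 matches, both after the start, and Mcm6 held 3, of which 2 overlap. Pole2, which fell by 1.32, and Pold1, which did not change detectably, held 1 each. Of the 15 members with the letters 14 fell in pre-cDC against CDP, and of the 21 matched members without them 19 fell, so the letters did not separate members by their call. A match is a description, not a site or a cause, and no match says only that these letters are not in the window.

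Letters of 2 further motifs were counted in the same windows. CCAAT, the letters of the NF-Y motif, was in 23 of 36 members (63.89%), in 12 of 14 genes of a mitosis list (85.71%) and in 42.0% of measured genes. TTTGAA, the letters of the CHR motif known from genes of the G2 and M phases, was in 6 of 36 members (16.67%), close to the 15.66% of measured genes. In the mitosis list it was in 10 of 14 (71.43%), and the E2F letters were in 1 of 14. Both strands were searched, and no difference between the lists was tested.

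The mitosis list went the other way from the members. Of its 15 measured genes 12 rose in pre-cDC against CDP and 0 fell, with a median of 0.51, while at an unadjusted p under 0.05 in limma 1 (Ttk) was lower. Bub1b, a spindle checkpoint kinase, read 594 and 527 in CDP and 1054 and 1060 in pre-cDC, a rise of 0.88 (limma adjusted p = 6.8e-05). Cenpa, the histone of the centromere, rose by 0.87 and Cdc20, an activator of the anaphase-promoting complex, by 0.71. Both pre-cDC arrays were above all 6 others for 12 of the 15, so these libraries combined lower replication transcripts with higher mitosis transcripts. The rises numbered 8 when pre-cDC replicate 2 was left out and 9 to 12 under the other settings, with 0 falls in each. The difference between the members and the mitosis list was not tested.

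**Figure D3:**
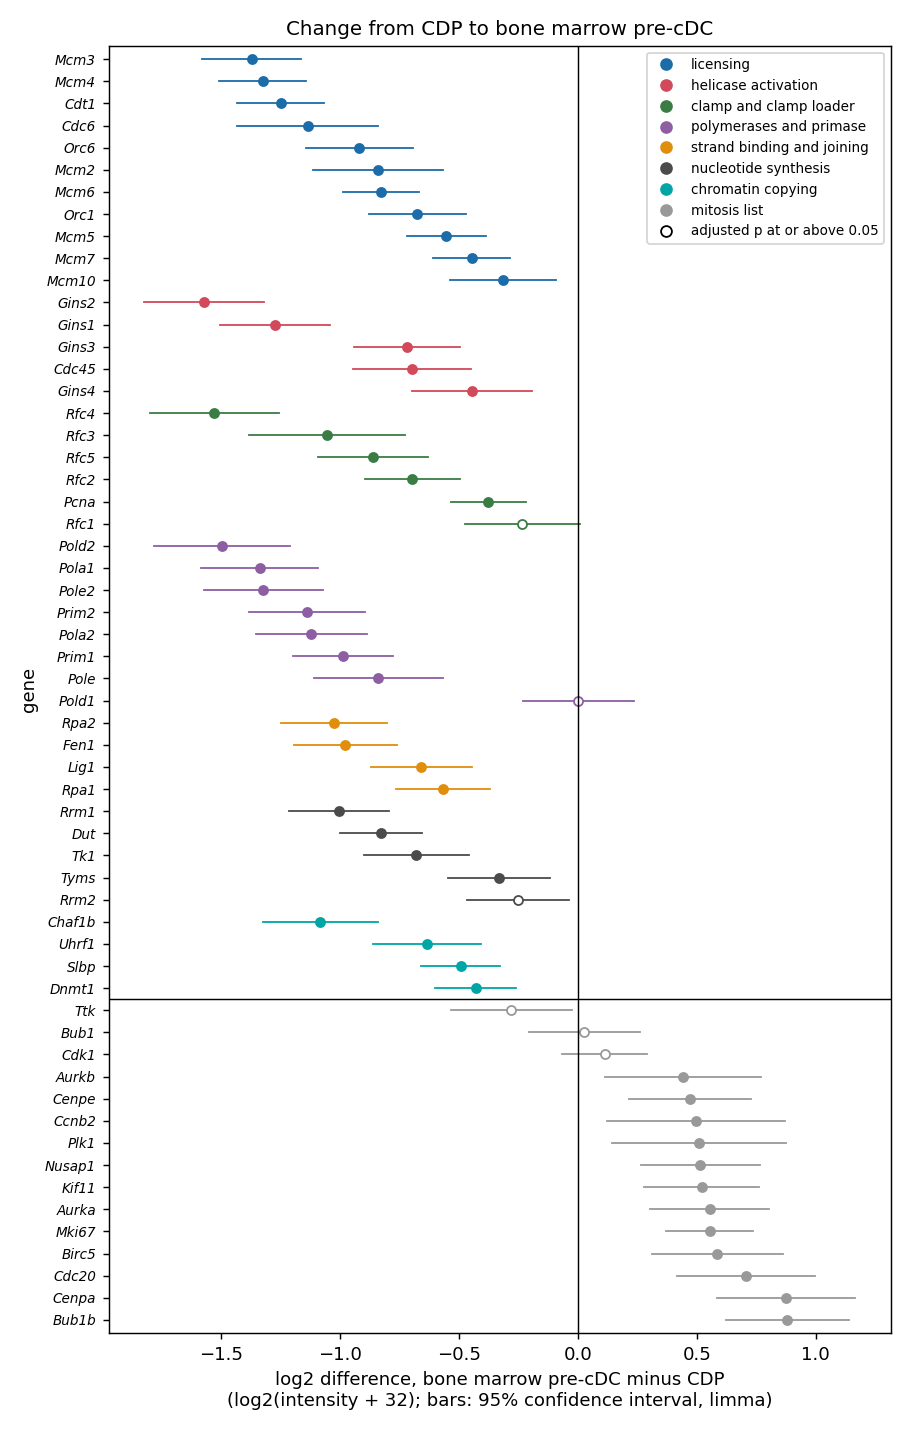
Log2 difference between bone marrow pre-cDC and CDP (horizontal axis, pre-cDC minus CDP) for the 43 members, coloured by role, and the 15 mitosis genes in grey; bars are 95% confidence intervals from limma, and open circles did not pass an adjusted p of 0.05. Of the members 40 lie to the left of 0 with filled circles, and 12 mitosis genes lie to the right.

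The other genes of the pathway mostly moved with the members. Of 27 further replisome and fork genes 20 fell and 2 rose: Hells, a chromatin remodeller, fell by 1.81 and Pole3, a small subunit of polymerase epsilon, by 1.31, while Dna2, a nuclease and helicase, rose by 1.49, from 498 and 567 in CDP to 1437 and 1671 in pre-cDC. Of 22 further nucleotide synthesis genes 16 fell and 4 rose. Shmt1 and Shmt2, the serine hydroxymethyltransferases that feed one-carbon units into dTTP and purine synthesis, fell by 2.28 and 2.03, and Ppat, the first enzyme of purine synthesis, by 1.97. These falls were larger than that of any member. The 4 that rose were Dck, Rrm2b, Samhd1 and Tk2, named after their values were seen; Dck and Tk2 phosphorylate salvaged deoxynucleosides and Samhd1 degrades dNTPs. Of 12 S-phase repair genes 10 fell and 0 rose, with 0 higher at an unadjusted p under 0.05 in limma, and Chek1, the checkpoint kinase of stalled forks, fell by 1.81, Exo1 by 1.43 and Brca2 by 1.32.

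Among 22 genes that control entry into S phase, 12 fell and 5 rose. Dtl, which directs destruction of Cdt1, fell by 1.58, and E2f3 and Ccne2, an E2F factor and a cyclin of the G1 to S transition, each fell by 1.26. The 5 that rose were Ccna2, Ccne1, Dbf4, E2f2 and Rb1, so E2f2 and Ccne1 went the other way from E2f3 and Ccne2. Of 7 CDK inhibitor genes 3 rose and 1 fell. Cdkn2d, which encodes p19, read 386 and 358 in CDP and 1167 and 1197 in pre-cDC, a rise of 1.59 (limma adjusted p = 7.3e-08). Cdkn1b and Cdkn2c rose by 0.92 and 0.90, and Cdkn1a fell by 0.69.

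Cell type markers moved with the same step. The summed intensity of the 5 GMP markers was 8656 and 10284 in CDP and 220 and 170 in pre-cDC, and 5 of 5 fell. The summed intensity of the 4 progenitor markers was 7451 and 8376 in CDP and 1439 and 1533 in pre-cDC, and 3 fell. That of the 6 dendritic cell markers was 3439 and 3179 against 12572 and 13604, where 4 rose and 1 fell. Monocyte markers, 4 measured, summed to 4826 and 5028 in CDP and 8696 and 9030 in pre-cDC. Their part in the fall of the members was not tested.

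The pre-cDC arrays were set against GMP and CMP as well, with the same pre-cDC arrays in each comparison. Against GMP 39 of 43 members fell and 1 rose, where 44% of all genes were called, 23.1% as lower and 21.0% as higher. In the fit of the 11482 brighter genes 36.0% were lower, and of the members 39 fell and 1 rose. The members' median was -0.82. Pold2 was the largest fall at 1.99, nearly 4-fold (3.98), with pre-cDC at 198 and 139 against 722 and 798 in GMP (limma adjusted p = 4.1e-08). Cdc6 followed at 1.50, Rfc4 at 1.49, Cdc45 at 1.39, Chaf1b at 1.25, Rpa2 at 1.17 and Dut at 0.92, each the largest fall of its role group. Pold1 was the one member that rose, from 387 and 428 in GMP to 752 and 731 (0.82, limma adjusted p = 2.9e-05; 0.43 on its other probe set). Of the 31 called members with several probe sets, 9 had a dimmer one with the opposite sign, among them Mcm3, Mcm6, Pola1 and Cdc45.

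Against CMP 34 members fell, 1 rose and 8 did not pass, where 42.2% of all genes were called, 23.0% as lower and 19.1% as higher. In the fit of the brighter genes 36.5% were lower, and of the members 34 fell and 2 rose. The members' median was -0.73. Pold2 fell by 1.77, Rfc4 by 1.70, Gins2 by 1.37, Mcm3 by 1.23, Chaf1b by 1.18, Rpa2 by 1.05 and Rrm1 by 0.83. Pold1 rose by 0.40 (limma adjusted p = 0.0080), from 533 and 574 in CMP. The 8 that did not pass were Mcm10, Cdc45, Rfc1, Rrm2, Tk1, Tyms, Dnmt1 and Slbp, so 3 of the 5 nucleotide synthesis genes were not called against CMP. Pola1, Prim2 and Rrm1 had a dimmer probe set of the opposite sign.

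Before the pre-cDC stage the members differed less between groups than they did from pre-cDC. Their median log2 difference was 0.068 for GMP against CMP, 0.165 for CDP against CMP and 0.103 for CDP against GMP. GMP against CMP gave 6 rises and 1 fall among 43 members (16.3%), close to the 16.8% of all genes called (7.0% higher and 9.76% lower) and below the 30.2% called among the 11482 brighter genes in their own fit (12.5% higher and 17.7% lower), which called 11 members. Cdc45, which belongs to the active helicase, stood out: 154 and 126 in CMP, 373 and 384 in GMP, and 227 and 217 in CDP. GMP was apart from every other progenitor array and higher than CMP by 2.40-fold (log2 difference 1.26, standard error 0.11, limma adjusted p = 6.3e-06). Its dimmer probe set gave -0.42, so the value holds for 1 probe set. Rrm2 rose by 0.62, from 1235 and 1167 to 1838 and 1883, and its other probe sets gave 1.25 and 0.61. Cdc6 rose by 0.52, Tk1 by 0.43, Pcna by 0.39 and Mcm5 by 0.34. Pold1 fell by 0.41 (limma adjusted p = 0.018), from 533 and 574 to 387 and 428, the one called member to go down. Its other, similarly bright probe set gave -0.115. Neutrophil markers, 6 measured, summed to 137 and 184 in CMP and 2803 and 3375 in GMP, and 3 were called higher. The 5 GMP markers summed to 11178 and 10500 against 27957 and 28413, and 5 were called higher. The 5 T and NK cell markers summed to 379 and 462 against 1821 and 1892. Only 1 of these was called, as higher, and the median log2 difference of the 5 was 0.03. Their part in these differences was not tested. The count of 7 calls was 4 without GMP replicate 1 and 4 without CMP replicate 2.

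CDP against CMP gave 8 rises and 0 falls, 18.6% of the members against 14.4% of all genes (7.68% higher and 6.75% lower). In the fit of the brighter genes 26.8% were called, and of the members 9 rose and 0 fell. Called or not, 37 of the 43 members were higher, with a median of 0.165, against 9165 of all 18193 genes and a median of 0.002. Under quantile normalization the median of the members was 0.078. At an unadjusted p under 0.05 in the limma fit of all genes 13 members were higher and 1 (Prim2) was lower. Tk1, which salvages thymidine, was highest in CDP, at 1014 and 923 against 651 and 630 in CMP. The groups did not overlap, and the rise was 0.57 (standard error 0.10, limma adjusted p = 0.0019). Cdc45 also rose by 0.57, Rrm2 by 0.50, Pold1 by 0.40, Gins3 by 0.35, Tyms by 0.34, Slbp by 0.31 and Dnmt1 by 0.25. A dimmer probe set of Tyms had the opposite sign. Under quantile normalization 5 rose and 1 fell. The count was 3 without either CMP array, 5 without either GMP array, 5 without CDP replicate 1 and 4 without CDP replicate 2. Erythroid markers, 7 measured, summed to 5521 and 4131 in CMP, 2588 and 4630 in GMP and 157 and 213 in CDP, and their part in these differences was not tested.

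CDP against GMP gave 8 rises and 3 falls (25.6%), where 28.0% of all genes were called, 15.9% as higher and 12.1% as lower. In the fit of the brighter genes 46.9% were called, and of the members 9 rose and 4 fell. Pold1 rose most, by 0.82 (standard error 0.11, limma adjusted p = 8.8e-05), from 387 and 428 in GMP to 677 and 811 in CDP, and its other probe set gave 0.45. Tyms rose by 0.54, Prim1 by 0.49, Orc6 by 0.41, Gins1 and Pole by 0.40, Gins3 by 0.34 and Slbp by 0.32. Tyms, Gins1 and Cdc45 each had a dimmer probe set of the opposite sign. Cdc45 fell by 0.69, Pold2 by 0.50 and Pcna by 0.25, so both named subunits of polymerase delta went in opposite directions. Pold1 and Pold2 were tested as separate genes, and the difference between them was not tested. Under quantile normalization 6 members rose and 8 fell, which turns the balance of directions. The count of 11 was 6 without GMP replicate 1, 5 without GMP replicate 2 and 6 without CDP replicate 2.

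Some genes that govern or feed replication did move in CDP. Of the 22 S-phase control genes 6 rose against CMP (27.3%) and 8 against GMP (36.4%), with 0 falls in either. By the same rule 14.4% of all genes were called against CMP and 28.0% against GMP. In the fit of the brighter genes these shares were 26.8% and 46.9%. The E2F genes E2f2 and E2f7 rose by 1.30 and 1.14 against CMP and by 1.57 and 0.96 against GMP. Of the further nucleotide synthesis genes 9 fell and 2 rose against CMP, and 14 fell and 2 rose against GMP. Dctd, the deoxycytidylate deaminase, fell by 0.97 against CMP, and Impdh1, which makes guanine nucleotides, fell by 1.13 against GMP. Of the 15 mitosis genes 9 rose against CMP and 8 against GMP, with 0 falls in either, also at an unadjusted p under 0.05 in limma. These comparisons share the CDP arrays.

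Across the progenitor arrays the median intensity of the members was 651 and 660 in CMP, 722 and 722 in GMP, 701 and 811 in CDP, and 561 and 466 in pre-cDC. That of the mitosis list was 773 and 577, 521 and 641, 892 and 765, and 1478 and 1358 in the same order. The mitosis list was thus highest on the arrays on which the members were lowest.

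The Spl array was on another scale, and its median log2 difference from the mean of the bone marrow pre-cDC arrays was 0.82 over all genes. As the values stand, 37 of 43 members were lower on Spl than on the bone marrow pre-cDC arrays, with a median of -0.925. Of all 18193 genes 1635 were lower in this way. After that shift is taken off, 43 of 43 were lower, with a median of -1.74, where 9096 of all 18193 genes lie below it by construction. There is no replicate to test it, and the values that follow are relative to the shift. Rrm2 was furthest below, by -3.94, at an intensity of 136 on Spl against 1553 and 1318 on the bone marrow pre-cDC arrays. Tk1 and Uhrf1 followed at -3.74 and -3.69. Gins2 and Tyms were nearest to the shift, at -0.27 and -0.25. By role, nucleotide synthesis genes had the lowest median (-2.47) and helicase activation genes the highest (-0.67, or 0.14 with the shift left in). The mitosis list was also lower there, 15 of 15 genes with a median of -4.28, which differs from the bone marrow pre-cDC arrays, where it was high. Array, scale and tissue differ together here, so these values are a description.

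In the cultures the members were highest in the M-CSF adherent cells and lowest in the GM-CSF CD11c+ cells. These comparisons rest on 1 array each, so they have no test; a gene counts as lower or higher from a 2-fold difference upwards on log2(intensity + 32), provided that the brighter of its values exceeded that array's median. The median member intensity was 599 in M-CSF adherent, 349 in GM-CSF adherent and 229 in GM-CSF CD11c+ cells, and 34 of 43 members had that order, against 23.7% of all genes.

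Between the adherent cells, 6 members were at least 2-fold lower in GM-CSF than in M-CSF and 0 were higher, where 5.49% of all genes passed, 2.12% as lower and 3.37% as higher. The median was -0.62. Tk1 read 703 in M-CSF and 259 in GM-CSF (-1.34), Gins2 454 and 173 (-1.24), and Cdt1 was lower by -1.19, Lig1 and Rfc3 by -1.11 and Mcm5 by -1.04. Rfc2, a clamp loader subunit, was the highest on the other side at 0.33. Averaging all probe sets of a gene left 3 members past 2-fold.

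The CD11c+ cells were lower again. Against GM-CSF adherent cells 5 members were at least 2-fold lower and 1 was higher, where 3.73% of all genes passed, 1.28% as lower and 2.45% as higher. Uhrf1 went from 340 to 90.1 (-1.61), Mcm2 from 382 to 113 (-1.52), Rrm2 from 1558 to 576 (-1.39), Cdc6 from 144 to 44.7 (-1.19) and Pola1 from 160 to 62.4 (-1.03). Gins3 was the exception: it read 91.8 in M-CSF adherent, 66.0 in GM-CSF adherent and 368 in GM-CSF CD11c+ cells. That put it 2.03 above GM-CSF adherent cells on the log2 scale, while the other GINS genes lay between -0.85 and 0.16.

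Against M-CSF adherent cells 24 members were at least 2-fold lower in the CD11c+ cells and 1, Gins3 (1.69), was higher, where 9.61% of all genes passed, 4.29% as lower and 5.32% as higher. The median was -1.09. Genes of the licensing group, Mcm10 among them, were lower in 9 of 11 cases, led by Mcm2 (658 against 113, -2.25). The largest differences in the other roles were Gins2 (-1.91), Rfc3 (-1.32), Pola1 (-1.71), Lig1 (-1.84), Tk1 (-2.19) and Uhrf1 (608 against 90.1, -2.39). Rfc2 was the highest member after Gins3, at 1018, 1284 and 1442 from M-CSF adherent through GM-CSF adherent to CD11c+ cells. Of the mitosis list 8 of 15 were at least 2-fold lower and 0 higher, with Kif11, a spindle motor, at -1.71. Ccne2 (-2.94) and Chek1 (-2.10) led the S-phase control and repair lists.

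Markers of other cell types differed between these arrays. The 6 neutrophil markers summed to 9535 in M-CSF adherent, 20634 in GM-CSF adherent and 1300 in GM-CSF CD11c+ cells, and the 6 dendritic cell markers to 8902, 24696 and 32255. Their part in the order of the members was not tested. The CD11c+ cells were the non-adherent fraction, so marker and adherence differ together between the arrays.

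**Figure D4:**
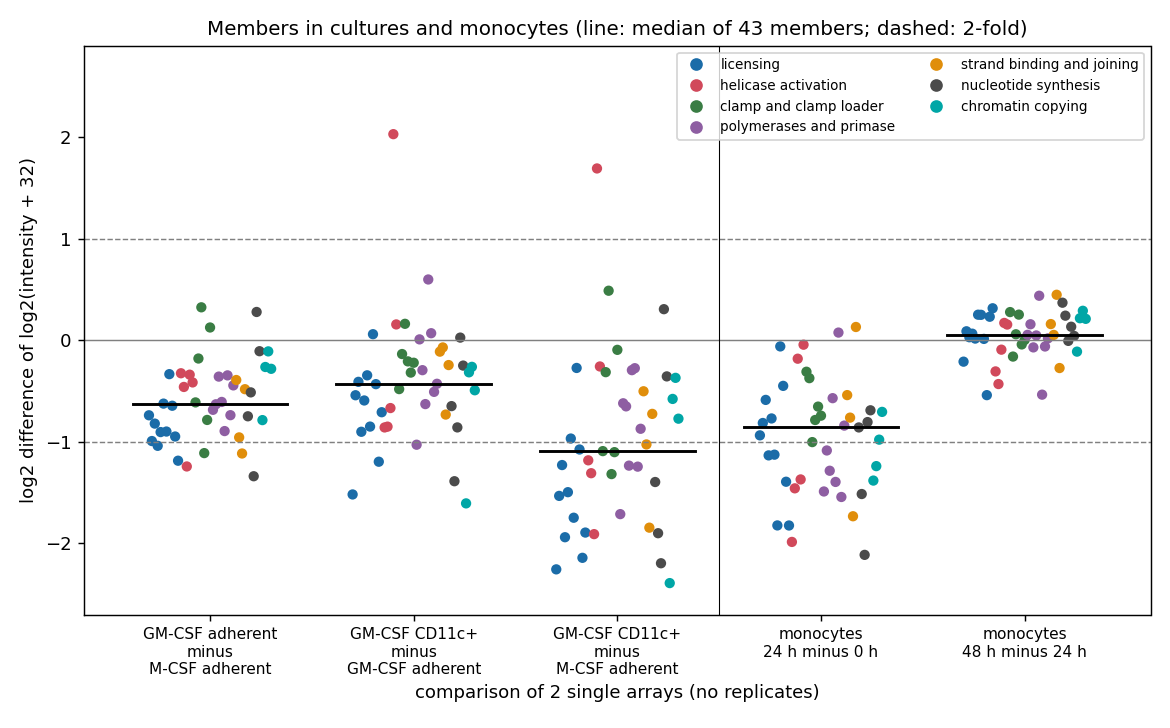
Log2 difference of log2(intensity + 32) between single arrays (vertical axis) for the 43 members in 5 comparisons, coloured by role, with the median as a line and 2-fold as dashed lines. The medians are -0.62, -0.43 and -1.09 for the cultures, and -0.86 and 0.06 for the monocytes; Gins3 is the point at 2.03.

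Monocytes given GM-CSF were lower in replication genes at 24 h, and no further difference past 2-fold was seen at 48 h. The median member intensity was 2615 at 0 h, 1315 at 24 h and 1396 at 48 h. At 24 h 19 members were at least 2-fold lower than at 0 h and 0 were higher, where 13.5% of all genes passed, 7.29% as lower and 6.22% as higher. The median was -0.86, against 0.00 for all genes.

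Tk1 lay furthest below its starting level at 24 h, with 2449, 542 and 540 over the 3 times (-2.11 at 24 h). Cdc45 read 2783, 679 and 543 (-1.98 at 24 h, -2.29 at 48 h). Both were low at 24 h and stayed low at 48 h. Cdt1 and Mcm10 were at -1.82, Lig1 at -1.73, Pole at -1.54 and Uhrf1 at -1.38, and Rfc2, the lowest of the clamp and clamp loader group, was just past 2-fold lower. Helicase activation had 3 of 5 members past 2-fold and polymerases and primase 5 of 8, but clamp and clamp loader only 1 of 6. Fen1 (9754, 10692 and 8848) and Pold2 (1929, 2036 and 1396) were the 2 members that were not lower at 24 h.

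From 24 h to 48 h 0 members passed 2-fold, where 3.64% of all genes did (2.75% higher and 0.89% lower), and the differences ran from -0.54 to 0.45. Against 0 h the 48 h array had 16 members at least 2-fold lower and 0 higher, where 13.6% of all genes passed, 6.19% as lower and 7.4% as higher. The order was 0 h, 48 h, 24 h from high to low in 29 members (20.9% of all genes) and 0 h, 24 h, 48 h in 11 (17.5% of all genes). The median after 24 h moved by 0.06, and under quantile normalization by -0.02, so no direction is given for it.

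The rest of the pathway was mixed. At 24 h 15 of 15 mitosis genes were at least 2-fold lower than at 0 h, with Ccnb2, a mitotic cyclin, at -2.82. Of the further nucleotide synthesis genes 0 were lower and 3 were higher: Cad, which starts pyrimidine synthesis, read 425, 2039 and 2378 at the 3 times (2.18 at 24 h), and Impdh1 and Adsl were at 1.05 and 1.03. Those 3 are 13.6% of the 22 genes, close to the 13.5% of all genes, and 9 of the 22 lay below their 0 h value. Of the members that make deoxynucleotides, Rrm2 was at -1.51, Rrm1 at -0.86 and Tyms at -0.80. Of the 7 CDK inhibitor genes 1 was at least 2-fold higher and 3 were lower (57.1%, against 13.5% of all genes). Cdkn1a, which encodes p21, was the higher one, at 1.88 (3418, 12683 and 12299 over the 3 times). Cdkn2d was the furthest below, at -3.32 (3139, 285 and 438).

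The 0 h array also held granule genes of immature myeloid cells, which were lower at the later times, as the members were. Mpo read 4935, 170 and 277, and Prtn3 10005, 166 and 156 over the 3 times. The 5 GMP markers summed to 30485, 12648 and 11651, the 6 neutrophil markers to 16244, 2825 and 3844, and the 4 progenitor markers to 5426, 770 and 1401. At 24 h 4 GMP markers were at least 2-fold lower and 0 higher, and 3 neutrophil markers were lower and 1 higher. Of the progenitor markers 2 were lower and 2 higher, and Mpo is in both that list and the GMP list. By this rule 13.5% of all genes passed. The part of these markers in the lower replication genes was not tested.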

How the data were processed

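The authors deposited 1 table of linear intensity values for 45037 probe sets on 15 arrays; background correction, summarisation and scaling are not given in the sources used here. Labelling used the 3' IVT Express kit, per the labels' protocols. Of the probe sets 34945 had 1 gene, 932 several and 9160 none; only the first were used. Values were taken as log2(intensity + 32), so differences of dim genes are understated. The 6 progenitor comparisons came from 1 limma fit (limma 3.58.1, R 4.3.3; intensity trend, 4 residual degrees of freedom and 12.56 after moderation), two-sided, adjusted over all genes. On simulated data, in which only genes brighter than the median were changed, it recovered 95% of log2 changes of 1 for pre-cDC against CDP. It recovered 47% of changes of 0.5 there, with 6 false calls. For CDP against CMP the values were 90%, 32% and 4. For pre-cDC against CMP they were 82%, 35% and 5, the lowest share for changes of 1. Members, role groups and the 6 pathway lists were chosen with earlier results of these data known. Named genes are the largest called change of each direction by role group and comparison, members called against the majority, and up to 3 called genes per pathway list. For pre-cDC against CDP all called rises of the S-phase control and further nucleotide synthesis lists are named too. Same-numbered arrays of different groups were not paired: their deviations correlated at -0.022 to 0.181. Figures used matplotlib 3.10.9 in Python 3.11.15. The number of arrays limits the precision.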

Additional observations from a re-analysis of the deposited data

How the results depend on the processing

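The settings tried were other pseudocounts, quantile normalization, equal array medians, the mean of all probe sets and a filter on dim genes. No intensity trend, a fit of only the 2 groups compared, a replicate block and leaving out each array were tried too. No member called in the comparisons above changed sign under any of them. Averaging all probe sets gave 2 rises in pre-cDC against GMP and 3 against CMP, where the brightest probe set gave 1 in each. A dimmer Slbp probe set was higher there, by 1.40 and 1.03. In pre-cDC the members called numbered 38 to 40 against CDP, 36 to 39 against GMP and 30 to 36 against CMP when 1 array was left out. The earlier comparisons were less stable: leaving out 1 array gave 4 to 8 for GMP against CMP (7 with all arrays), 3 to 8 for CDP against CMP (8) and 5 to 12 for CDP against GMP (11). The lone array left in a group was then assumed to vary like the other groups. GMP against CMP gave 11 with the filter on dim genes, which leaves fewer genes to adjust over, and CDP against CMP gave 4 when only those groups were fitted. With the replicate number as a block the counts were 9, 9 and 13 for GMP against CMP, CDP against CMP and CDP against GMP, and 41, 40 and 36 for pre-cDC against CDP, GMP and CMP. At a 4-fold threshold the single-array count became 0 for GM-CSF against M-CSF adherent cells. For CD11c+ cells 1 member, Gins3, was higher and 0 were lower against GM-CSF adherent cells. Against M-CSF adherent cells 0 were higher and 4 lower. For monocytes against 0 h, 1 was lower at 24 h and 2 at 48 h, with 0 higher. Averaging probe sets left 3 for GM-CSF against M-CSF adherent cells; the cause was not tested.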
